A study of Mus musculus with 9 samples.

Results

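The 10 genes described here are H2-Aa, H2-Ab1, H2-Eb1, H2-Eb2, H2-DMa, H2-DMb1, H2-DMb2, H2-Oa, Cd74 and Ciita. They encode mouse MHC class II chains, proteins of peptide loading and its control, and, for Ciita, a coactivator of class II genes. They were taken as a named list, and all 10 had at least 1 transcript in the deposited files, out of 35071 genes in all. RNA of subcutaneous adipose tissue was sequenced from C57BL/6 mice aged 24 weeks, with 3 libraries labelled Homo KO, 3 labelled Hete KO and 3 labelled WT. The KO mice carried an endothelial AGO1 knockout, homozygous in Homo KO and heterozygous in Hete KO, and WT mice were littermates. The sources used here do not give the Cre driver, the sex of the mice or a batch, and no label ties each library to an animal of its own, so p-values measure the spread between these samples. The whole tissue was sequenced.

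MHC class II molecules are cell-surface heterodimers of an alpha and a beta chain that show peptides from the endocytic route to CD4 T cells. The invariant chain, encoded by Cd74, fills the groove during assembly, is cut down by lysosomal proteases, and is exchanged for peptide by H2-DM, a class II-like dimer whose action H2-O restrains. The coactivator Ciita switches the whole set on in dendritic cells, B cells and macrophages, and other cells can gain it under interferon-gamma. In adipose tissue, macrophages and dendritic cells are the best known carriers, and adipocytes can express class II as well.

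Total estimated counts lay between 20843427 and 28252001 per library. Ago1, the targeted gene, had 62.2, 58.6 and 25.8 CPM in Homo KO, 51.2, 59.7 and 60.1 in Hete KO, and 69.9, 63.8 and 63.4 in WT. CPM values are scaled to library size after TMM normalisation. The Ago1 log2 fold change against WT was -0.43 in Homo KO (edgeR adjusted p = 0.441) and -0.21 in Hete KO (adjusted p = 0.699), so Ago1 did not pass the test in this whole tissue. Skeletal muscle transcripts (12 genes) took 2.57% of the counts in Hete KO 2, 1% in WT 1 and 0.954% in WT 2, and at most 0.125% elsewhere. Liver transcripts (12 genes) took 0.112% in WT 2 and 0.1% in WT 3, and at most 0.00744% elsewhere.

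Class II genes were plainly detected in this fat. On the TPM scale, which is per transcript length and so allows genes to be compared, the mean level over the 9 libraries was 190 for Cd74, 176 for H2-Ab1, 155 for H2-Eb1 and 154 for H2-Aa. These 4 lay together, with spreads between libraries wider than the gaps between them. H2-DMb1 (18.3 TPM), H2-DMa (14.5) and Ciita (10.9) were far lower, H2-DMb2 had 2.70 TPM, and H2-Eb2 and H2-Oa had 0.296 TPM each. The low pair rested on very few reads, between 1 and 19 estimated counts per library for H2-Eb2 and between 0 and 8 for H2-Oa. Of the 10 genes, 9 passed the filter on low counts, and H2-Oa did not.

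**Figure D1:**
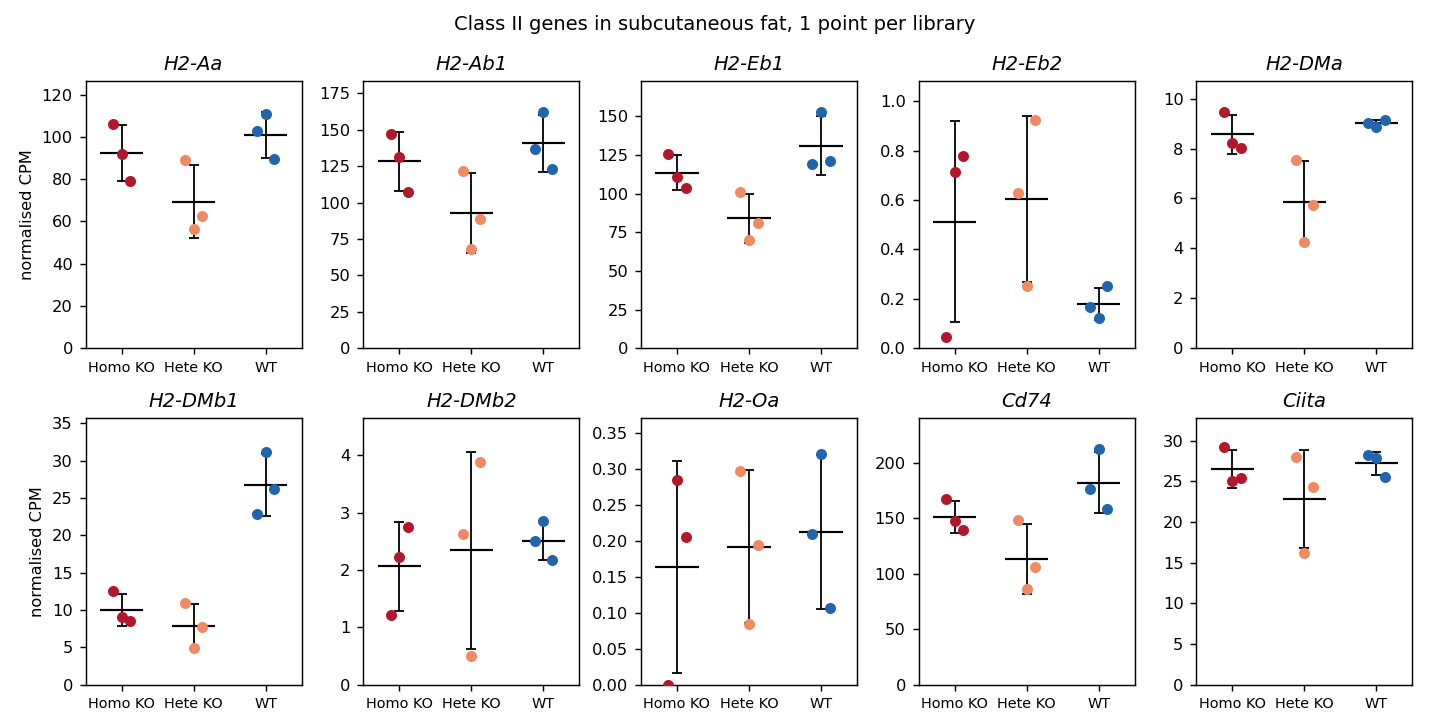
Normalised CPM (y axis, from 0) of each class II gene in the Homo KO, Hete KO and WT libraries, with 1 point per library, the mean as a line and the SD as a bar. H2-DMb1 lies between 4.89 and 12.5 CPM in the 6 KO libraries and between 22.9 and 31.2 CPM in WT, while H2-Aa, H2-Ab1, H2-Eb1 and Cd74 have their lowest mean in Hete KO.

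The classical chains come first. Values per library are given in the order of replicates 1 to 3. H2-Ab1, the beta chain of the I-A molecule, had 147, 131 and 107 CPM in Homo KO, 122, 67.9 and 88.7 in Hete KO, and 137, 162 and 123 in WT. All 3 Hete KO libraries lay below all 3 WT libraries, Hete KO 1 only just, and the Homo KO libraries overlapped WT. The means were 93.0 ± 27.4 CPM in Hete KO and 141 ± 19.5 in WT (SD, n = 3 each), or -0.60 as a log2 fold change (SE 0.209, edgeR adjusted p = 0.145). H2-Aa, the alpha chain that pairs with it, had 106, 92.2 and 79.2 CPM in Homo KO, 89.0, 56.4 and 62.5 in Hete KO, and 103, 111 and 89.4 in WT. The Hete KO libraries again lay below WT, Hete KO 1 by little, while they overlapped the Homo KO libraries. Against WT its log2 fold change was -0.54 in Hete KO (SE 0.179, adjusted p = 0.127) and -0.13 in Homo KO (SE 0.178, adjusted p = 0.753). For H2-Ab1 in Homo KO it was likewise -0.13 (SE 0.208, adjusted p = 0.788).

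H2-Eb1, the beta chain of the I-E molecule, had 126, 111 and 104 CPM in Homo KO, 101, 69.7 and 81.3 in Hete KO, and 119, 153 and 121 in WT. Hete KO was separate from both other groups, with its highest library below the lowest Homo KO and the lowest WT library. The log2 fold change against WT was -0.64 in Hete KO (SE 0.157, adjusted p = 0.0757) and -0.21 in Homo KO (SE 0.157, adjusted p = 0.531), and it was 0.44 in Homo KO against Hete KO (SE 0.157, adjusted p = 0.899). C57BL/6 mice are known to lack the I-E alpha chain, and the one transcript of H2-Ea-ps in the files had 0 counts in each of the 9 libraries. H2-Eb2, a second E-type beta gene of low expression, had 0.0453, 0.713 and 0.780 CPM in Homo KO, 0.630, 0.253 and 0.924 in Hete KO, and 0.167, 0.120 and 0.250 in WT. The Hete KO values lay above WT by a narrow margin, and the log2 fold change of 1.71 (SE 0.882, adjusted p = 0.295) did not pass the test. It was 1.49 in Homo KO against WT (SE 0.887, adjusted p = 0.428), where the groups overlapped.

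Cd74, the invariant chain, had 167, 147 and 139 CPM in Homo KO, 148, 85.9 and 106 in Hete KO, and 176, 212 and 158 in WT. Its Hete KO libraries lay below WT, and its Homo KO libraries overlapped WT. The means were 113 ± 31.4 CPM in Hete KO and 182 ± 27.4 in WT (n = 3 each), or -0.68 as a log2 fold change (SE 0.193, adjusted p = 0.0965). In Homo KO against WT it was -0.27 (SE 0.192, adjusted p = 0.506). H2-Aa over H2-Ab1 was 0.877 ± 0.0499 in Homo KO, 0.876 ± 0.112 in Hete KO and 0.884 ± 0.00764 in WT on the TPM scale (SD, n = 3 each). H2-Eb1 over H2-Ab1 was 0.869 ± 0.0746 in Homo KO, 0.893 ± 0.129 in Hete KO and 0.912 ± 0.0621 in WT, and H2-Ab1 over Cd74 was 0.969 ± 0.0882 in Homo KO, 0.941 ± 0.0643 in Hete KO and 0.874 ± 0.0268 in WT.

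The differences of these 4 genes were smaller without the 3 libraries with over 0.5% muscle transcripts (WT 1, WT 2 and Hete KO 2), which leaves WT 3 as the one WT library. In Hete KO against WT they were then -0.23 for H2-Aa, -0.21 for H2-Ab1, -0.40 for H2-Eb1 and -0.31 for Cd74, and in Homo KO against WT 0.05, 0.06, -0.09 and -0.06 for the same genes. Without WT 2 alone, the Homo KO values were -0.05 for H2-Aa, -0.02 for H2-Ab1, -0.08 for H2-Eb1 and -0.14 for Cd74. Without Homo KO 3 they were -0.02 for H2-Aa and -0.01 for H2-Ab1, and without Homo KO 1 -0.23 for each of these genes.

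H2-DMb1, the beta chain of the peptide-exchange dimer H2-DM, stood apart from the rest. It had 12.5, 9.08 and 8.58 CPM in Homo KO, 10.9, 4.89 and 7.78 in Hete KO, and 22.9, 31.2 and 26.2 in WT. The highest of the 6 KO libraries lay well below the lowest WT library. H2-DMb1 fell to 7.86 ± 3.01 CPM in Hete KO, against 26.8 ± 4.20 in WT (n = 3 each), with an edgeR log2 fold change of -1.77 (SE 0.280) and an adjusted p of 0.0426. In Homo KO it had 10.1 ± 2.16 CPM against the same WT libraries, with a log2 fold change of -1.41 (SE 0.277). This did not pass the test in edgeR (adjusted p = 0.154) and passed in DESeq2 (adjusted p = 0.00014). Homo KO set against Hete KO gave 0.36 for H2-DMb1 (SE 0.276, adjusted p = 0.947).

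The Hete KO call of H2-DMb1 held in 8 of 21 alternatives and ended in 13, with adjusted p between 1e-07 and 0.36. It ended without WT 2 (-1.63, adjusted p = 0.148), WT 3 (-1.76, adjusted p = 0.0632), Hete KO 2 (-1.53, adjusted p = 0.103) or Hete KO 3 (-1.74, adjusted p = 0.195), and also when a Homo KO library was left out of the shared spread estimate (-1.75, -1.77 and -1.75 without Homo KO 1, 2 and 3, adjusted p = 0.0663, 0.103 and 0.0655). Across the alternatives the log2 fold change lay between -2.06 and -1.48 in Hete KO against WT and between -1.59 and -1.19 in Homo KO against WT.

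At gene level H2-DMa, the alpha chain that pairs with the DM beta chain, did not share that pattern in Homo KO. It had 9.47, 8.22 and 8.01 CPM in Homo KO, 7.56, 4.26 and 5.74 in Hete KO, and 9.02, 8.86 and 9.16 in WT. Hete KO lay below both other groups, and Homo KO spanned the WT values. Against WT the log2 fold change of H2-DMa was -0.62 in Hete KO (SE 0.213, adjusted p = 0.138) and -0.07 in Homo KO (SE 0.211, adjusted p = 0.892), the second turning to 0.30 by limma on log2(TPM + 0.5). It was 0.55 in Homo KO against Hete KO (SE 0.213, adjusted p = 0.899). These gene values include the noncoding retained-intron transcript H2-DMa-202. The full-length coding H2-DMa-201 was lower in Homo KO than in WT without overlap, at 3.88 ± 1.16 against 6.39 ± 0.454 CPM. Its log2 fold change of -0.72 did not pass the test (edgeR adjusted p = 0.716). The TPM ratio of H2-DMb1 to H2-DMa was 0.795, 0.601 and 0.700 in Homo KO, 1.08, 0.815 and 0.890 in Hete KO, and 1.81, 2.87 and 2.04 in WT. All 6 KO libraries had a lower ratio than all 3 WT libraries. This ratio was formed after the values were seen and is given with no test. Its H2-DMa part includes H2-DMa-202, so the gap is not one between full-length forms. That transcript took 66.2 to 86.4% of H2-DMa TPM in Homo KO, 55.2 to 78.0% in Hete KO and 45.3 to 61.4% in WT. H2-DMa-201 alone had 4.59, 2.71 and 4.64 TPM in Homo KO, 5.6, 1.92 and 3.72 in Hete KO, and 6.71, 6.99 and 5.68 in WT. Set against Cd74 on the same scale, H2-DMb1 had a ratio of 0.0657 ± 0.00977 in Homo KO, 0.0689 ± 0.00164 in Hete KO and 0.140 ± 0.0188 in WT, so its lower level in the KO libraries went beyond that of the abundant class II genes.

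**Figure D2:**
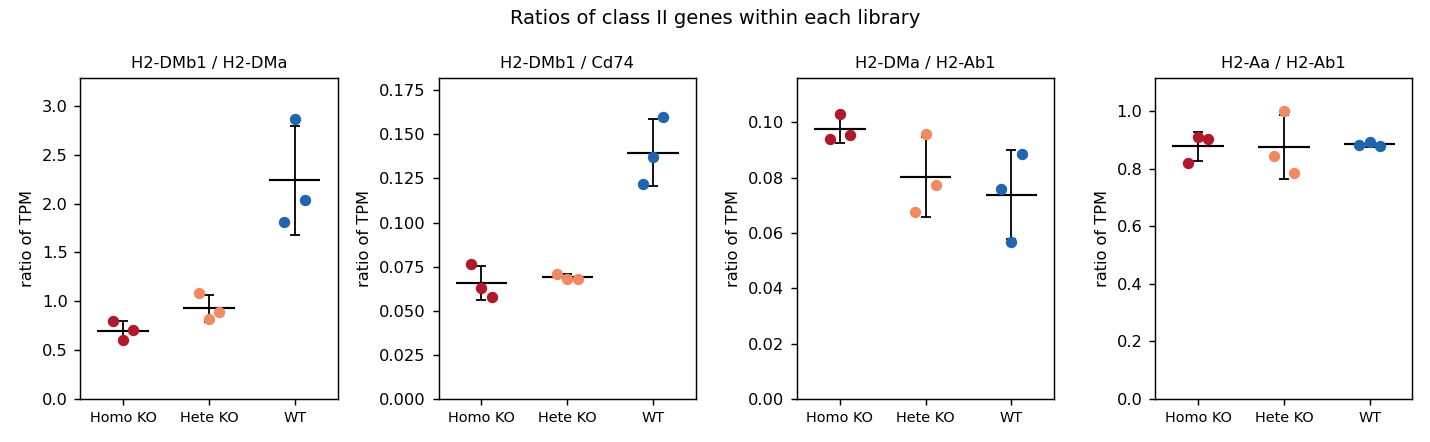
Ratio of TPM between class II genes within each library (y axis, from 0) for Homo KO, Hete KO and WT, with 1 point per library, the mean as a line and the SD as a bar. H2-DMb1 over H2-DMa is at most 1.08 in KO libraries and at least 1.81 in WT, whereas H2-Aa over H2-Ab1 overlaps between all groups. The TPM of H2-DMa includes its retained-intron transcript H2-DMa-202.

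H2-DMb2 is a neighbouring near-copy of H2-DMb1, and reads of one can be assigned to the other. Both lie on the plus strand of chromosome 17 (GRCm38, mm10), H2-DMb2 at 34143307 to 34151555 and H2-DMb1 at 34153072 to 34160230. The coding sequences of H2-DMb1-201 and H2-DMb2-201 are both 786 bases long and are identical at 754 of them (95.9%), with 93.1% of the encoded residues identical. Of the 31-base words in H2-DMb1-201, 37.6% also occur in H2-DMb2, so the remainder can tell the genes apart. The 32 differences are clustered, and the 90-base coding window that holds most of them, 19, runs from coding base 206 to 295 in both transcripts. It is shown because reads from here separate the genes, with differing bases in capitals (GENCODE M21).
H2-DMb1-201: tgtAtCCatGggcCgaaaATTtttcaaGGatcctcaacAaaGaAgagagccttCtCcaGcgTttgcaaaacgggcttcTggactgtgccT
H2-DMb2-201: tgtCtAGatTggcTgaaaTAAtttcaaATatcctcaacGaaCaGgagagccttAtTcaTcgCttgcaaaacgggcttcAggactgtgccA
By contrast, coding bases 391 to 611 are the same in both transcripts, a run of 221 bases whose reads fit either gene.

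H2-DMb2 had 1.22, 2.23 and 2.75 CPM in Homo KO, 2.63, 0.506 and 3.89 in Hete KO, and 2.51, 2.85 and 2.17 in WT. The groups overlapped throughout, with log2 fold changes of -0.27 in Homo KO (SE 0.587, adjusted p = 0.850) and -0.10 in Hete KO (SE 0.584, adjusted p = 0.942) when set against WT. Its share of the joint counts of both genes was 8.88, 19.7 and 24.3% in Homo KO, 19.5, 9.38 and 33.3% in Hete KO, and 9.87, 8.35 and 7.65% in WT. Of the 31-base words of H2-DMb2, 41.6% occur in another gene and 34% in H2-DMb1, so some are shared with further genes. Summing the counts of both genes, which removes the effect of how reads were split between them, gave 12.1 ± 1.41 CPM in Homo KO, 10.2 ± 4.26 in Hete KO and 29.3 ± 4.41 in WT. The log2 fold change of the sum against WT was -1.27 for Homo KO (SE 0.289, adjusted p = 0.161) and -1.52 for Hete KO (SE 0.291, adjusted p = 0.0591), so the sum did not pass the test in either comparison.

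H2-Oa, the alpha chain of the H2-O dimer that restrains H2-DM, was at the edge of detection and was not tested. It had 0, 0.285 and 0.205 CPM in Homo KO, 0.297, 0.0843 and 0.194 in Hete KO, and 0.209, 0.321 and 0.107 in WT. Its partner H2-Ob was higher in level, with 1.45, 3.04 and 2.96 CPM in Homo KO, 2.08, 0.506 and 1.75 in Hete KO, and 0.626, 0.721 and 0.642 in WT. Every Homo KO library held more H2-Ob than any WT library. The log2 fold change was 1.90 in Homo KO against WT (SE 0.528, adjusted p = 0.188) and did not pass the test.

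Ciita, the coactivator of the class II promoters, had 29.2, 25.0 and 25.4 CPM in Homo KO, 28, 16.2 and 24.3 in Hete KO, and 28.2, 27.9 and 25.6 in WT. All groups overlapped, and the lowest value was that of Hete KO 2. Against WT, Ciita had a log2 fold change of -0.04 for Homo KO (SE 0.182, adjusted p = 0.935) and of -0.26 for Hete KO (SE 0.182, adjusted p = 0.451). Mouse Ciita is known to be transcribed from several promoters used by different cell types. Transcripts that start in the middle region (chromosome 16, from 10488178) held 68.2, 75.8 and 67.8% of Ciita counts in Homo KO, 62.3, 74.8 and 73.8% in Hete KO, and 77.3, 46.8 and 64.4% in WT. Those that start upstream (from 10480059) held between 14.3 and 23.5% in Homo KO, between 16.5 and 22.4% in Hete KO and between 12 and 32.3% in WT, and the remainder started from 10489746 on. The middle region held the largest share of the counts in all 9 libraries, with overlapping shares. Counts favour long transcripts, and Ciita-201 of the middle region has 6007 bases, against 680 for Ciita-208 downstream. On the TPM scale the downstream transcripts together took more than the middle ones in WT 2 and Hete KO 1, and less in the other libraries.

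Ciita binds no DNA itself but sits on a complex of RFX, CREB and NF-Y proteins at class II promoters, where RFX is known to bind the X box and NF-Y the inverted CCAAT of the Y box. RefSeq promoter windows of 300 bases (250 before to 50 after a start, GRCm38.p6) were at hand for 7 of the 10 genes, 8 windows in all, since H2-DMa has a pair. The letters ACNGATG of an X-type element, searched on both strands, occurred in the windows of H2-DMb1, H2-DMb2, H2-Eb1, H2-Eb2 and H2-Oa on the strand of the gene and of H2-Aa on the opposite strand, and in neither window of H2-DMa. They occur in 9.85% of all 32851 promoter windows. ATTGG, which does not overlap ACNGATG, occurred in 7 of the 8 windows, against 37.4% of all promoter windows, and was missing from the H2-DMa window at chr17:34122582-34122881. Below are 120-base stretches around the matches, shown so that the element of H2-DMb1, the gene that stood apart, can be read beside its copy and the E-type genes. Capitals mark ACNGATG and ATTGG as read on the printed strand, which is the plus strand for all 5. Matches on the opposite strand, of which H2-Eb1 has one to ATTGG, are left in lower case.
H2-DMb1 (chr17:34153086-34153205): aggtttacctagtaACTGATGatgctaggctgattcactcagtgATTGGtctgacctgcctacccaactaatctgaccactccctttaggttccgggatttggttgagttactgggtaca
H2-DMb2 (chr17:34145115-34145234): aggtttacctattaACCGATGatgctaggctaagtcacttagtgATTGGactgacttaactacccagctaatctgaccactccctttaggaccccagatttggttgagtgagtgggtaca
H2-Eb1 (chr17:34305765-34305884): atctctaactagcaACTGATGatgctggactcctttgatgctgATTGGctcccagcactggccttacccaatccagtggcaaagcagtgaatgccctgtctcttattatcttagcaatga
H2-Eb2 (chr17:34325532-34325651): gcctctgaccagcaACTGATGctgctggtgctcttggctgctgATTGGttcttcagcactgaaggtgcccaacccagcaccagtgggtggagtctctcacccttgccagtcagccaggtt
H2-Oa (chr17:34092228-34092347): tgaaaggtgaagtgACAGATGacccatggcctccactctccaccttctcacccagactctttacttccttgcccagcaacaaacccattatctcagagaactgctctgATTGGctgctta
The motifs are 23 bases apart in H2-DMb1 and H2-DMb2, 22 in H2-Eb1 and H2-Eb2, and 87 in H2-Oa. A match is a description of the letters and not a measured binding site.

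Counted together in Hete KO against WT, 1 of the 9 tested genes passed the test, lower (H2-DMb1), where 0.267% of all 17968 tested genes passed as lower and 0.15% as higher. Without overlap of the groups, Hete KO lay below WT for 6 of the 9, namely H2-Aa, H2-Ab1, H2-Eb1, H2-DMa, H2-DMb1 and Cd74, against 12.1% of all tested genes, and above WT for H2-Eb2, against 12.6%. The same 6 were lower at an unadjusted p under 0.05, against 12.1% of all tested genes lower and 9.71% higher by that rule. Of the 9, 8 had a log2 fold change below 0, against 48.6% of all tested genes, and the median was -0.60 over the 9 and 0.02 over all. DESeq2 called 5 lower (H2-Aa, H2-Ab1, H2-Eb1, H2-DMb1 and Cd74) and 0 higher, against 6.14 and 3.64% of all genes it tested. Leaving out Hete KO 1, edgeR called 6 of the 9 lower, against 3.25% of all genes. It called 1 without WT 1 and 0 when any other single library was left out.

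For Homo KO against WT, edgeR called 0 of the 9 and 0% of all tested genes in either direction. At an unadjusted p under 0.05 H2-DMb1 was lower and no member was higher, against 8.68% of all tested genes lower and 7.75% higher. H2-DMb1 was also the only member whose groups did not overlap, against 11.2% of all tested genes lower and 10.9% higher. Of the 9 genes, 8 had a log2 fold change below 0, against 50.7% of all tested genes, and the median was -0.13 over the 9 and -0.01 over all. DESeq2 called H2-DMb1 alone, lower, against 1.92% of all genes lower and 1.43% higher. So did edgeR without the libraries with over 1% muscle transcripts, WT 1 and Hete KO 2 (log2 fold change -1.52, adjusted p = 0.0213), against 1.19% of all genes lower. This comparison and that of Hete KO share the WT libraries, so the low H2-DMb1 in both is not independent evidence.

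Homo KO against Hete KO had 0 of the 9 and 0% of all tested genes called by edgeR, and 0 of the members by DESeq2, which called 0.0118% of all genes lower and 0.00395% higher. At an unadjusted p under 0.05, 3 of the 9 (H2-Aa, H2-Eb1 and H2-DMa) were higher and 0 lower, against 2.25 and 3.19% of all tested genes. The Homo KO libraries lay above the Hete KO libraries without overlap for H2-Eb1 and H2-DMa, 2 of 9 against 5.73% of all tested genes, and below them for 0 of 9, against 5.64%. Of the 9 genes, 7 had a log2 fold change above 0, against 50.5% of all tested genes, and the median was 0.41 over the 9 and 0 over all. The values of the other abundant genes were 0.41 for H2-Aa, 0.46 for H2-Ab1 and 0.41 for Cd74, each with an adjusted p of 0.899.

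**Figure D3:**
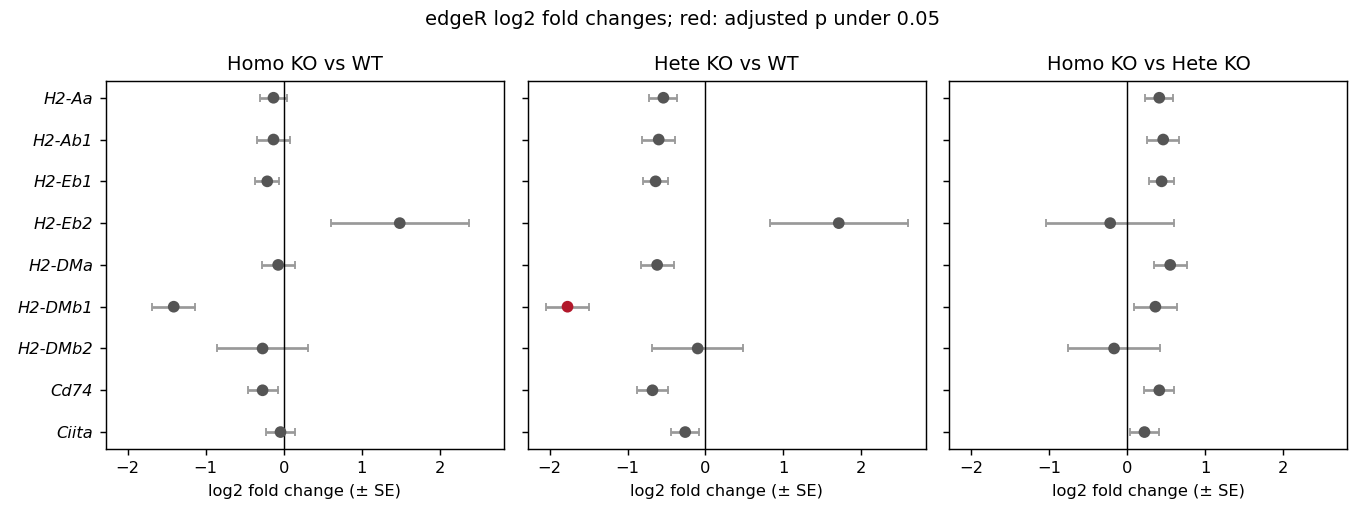
edgeR log2 fold changes (x axis) with their SE for the 9 tested class II genes (y axis) in Homo KO against WT, Hete KO against WT and Homo KO against Hete KO, with the called value in red. The only call is H2-DMb1 at -1.77 in Hete KO against WT, and its value in Homo KO against WT is -1.41.

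At the level of single transcripts, 23 of the 29 member transcripts in the files passed the filter, and edgeR called 0 of them in each of the 3 comparisons, where it called 0% of all 55891 tested transcripts, except 0.00179% as higher in Homo KO against Hete KO. H2-DMb1-201, the full-length form, had 259, 184 and 207 estimated counts in Homo KO, 288, 100 and 158 in Hete KO, and 537, 773 and 710 in WT. The KO libraries lay below WT, as at gene level, with log2 fold changes against WT of -1.47 for Homo KO (SE 0.330, adjusted p = 0.556) and -1.81 for Hete KO (SE 0.334, adjusted p = 0.341). DESeq2 called 1 member transcript lower in each of these comparisons, against 0.601% of all transcripts in Homo KO and 0.972% in Hete KO, and 0 in Homo KO against Hete KO, against 0.27%. H2-DMb2-202, which has a shorter coding sequence of 393 bases, had 0, 8 and 4 counts in Homo KO, 7, 0 and 7 in Hete KO, and 24, 71 and 35 in WT. Its share of H2-DMb2 TPM was between 0 and 14.7% in Homo KO, between 0 and 8.73% in Hete KO and between 38.0 and 100% in WT. Of its 31-base words, 34.4% occur in H2-DMb1 as well, so this split between a low gene and its copy is uncertain.

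Cd74 is made in a short form and a long form, and the long form has an added exon known to encode a protease-inhibiting thyroglobulin-type domain. Cd74-202 has an exon of 192 bases (chromosome 18, 60811294 to 60811485) that Cd74-201 lacks, and a coding length of 840 against 648 bases. Cd74-202 took 41.8, 36.1 and 36.4% of Cd74 TPM in Homo KO, 38.3, 38.5 and 37.3% in Hete KO, and 36.5, 32.6 and 34.3% in WT. All Hete KO shares of Cd74-202 lay above all WT shares, and the Homo KO shares overlapped WT. Cd74-203, which has the same coding length of 840 bases, took 0.974% in Homo KO 2 and 0 in every other library. H2-DMa-202, a short retained-intron transcript, took 78.7, 86.4 and 66.2% of H2-DMa TPM in Homo KO, 55.2, 78.0 and 64.6% in Hete KO, and 58.8, 45.3 and 61.4% in WT. The full-length H2-DMa-201 had 93, 56 and 117 estimated counts in Homo KO, 144, 46 and 73 in Hete KO, and 146, 173 and 167 in WT, and every KO library lay below every WT library, Hete KO 1 by little. Neither transcript passed the test, at adjusted p = 0.716 for H2-DMa-201 and 0.643 for H2-DMa-202 in Homo KO against WT.

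**Figure D4:**
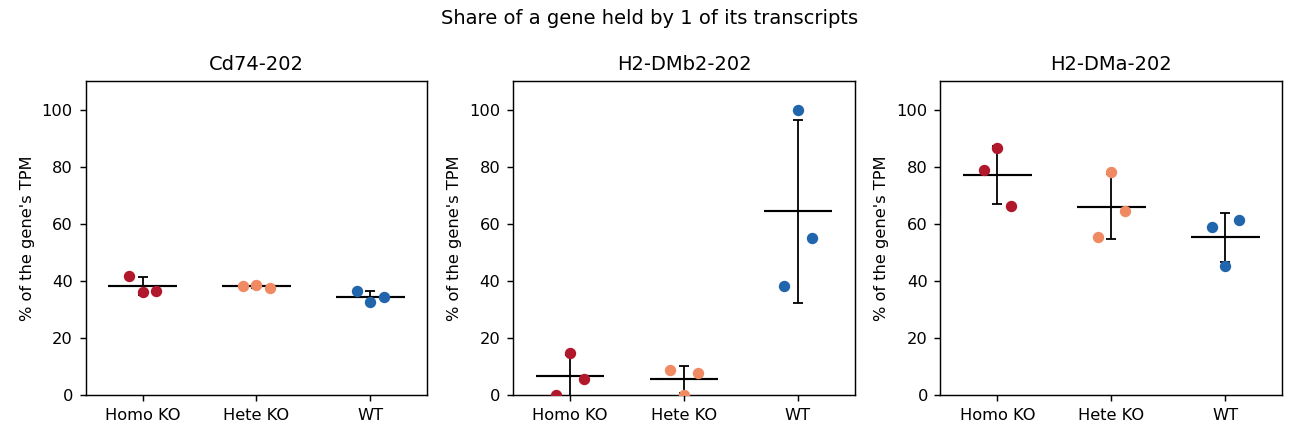
Share of a gene's TPM (y axis, %) held by Cd74-202, H2-DMb2-202 and H2-DMa-202 in the Homo KO, Hete KO and WT libraries, with 1 point per library, the mean as a line and the SD as a bar. Cd74-202 stays between 32.6 and 41.8% in all libraries, and H2-DMb2-202 is at most 14.7% in KO libraries and at least 38.0% in WT.

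Other genes of the class II route were read from a list of 32, of which 30 were tested. None was called by edgeR in any comparison, where it called 0.267% of all tested genes lower and 0.15% higher in Hete KO against WT, and 0% in the others. In Hete KO against WT, 9 were lower and 1 was higher at an unadjusted p under 0.05, against 12.1 and 9.71% of all tested genes. DESeq2 called 6 lower and 1 higher, against 6.14 and 3.64% of all genes it tested. The smallest p were those of Ctsd, Ifngr1, Ctsl, Lgmn, Irf8 and Ctsb. Ctsd, the aspartic protease cathepsin D, averaged 487 ± 106 CPM in Hete KO and 835 ± 80.1 CPM in WT, a difference of -0.78 on the log2 scale (adjusted p = 0.0613). Ctsl, a cysteine protease that can trim the invariant chain, had 170 ± 53.5 against 319 ± 23.8 CPM (-0.91, adjusted p = 0.0666), and Lgmn, the asparaginyl endopeptidase, 45.8 ± 17.3 against 97.9 ± 17.9 CPM (-1.09, adjusted p = 0.0691). Ctsb, cathepsin B, had 1027 ± 90.9 CPM in Hete KO and 1378 ± 35.4 CPM in WT mice (-0.42, adjusted p = 0.0856). Irf8, a transcription factor of dendritic cells and macrophages, had 14.6 ± 6.77 against 34.6 ± 5.21 CPM (-1.24, adjusted p = 0.0713). In the other direction Ifngr1, a chain of the interferon-gamma receptor, had 188 ± 21.2 against 113 ± 20.9 CPM (0.73, adjusted p = 0.0613).

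Of that list, 6 genes in Homo KO against WT were lower and 3 higher at an unadjusted p under 0.05, against 8.68 and 7.75% of all tested genes. DESeq2 called 2 lower and 1 higher, against 1.92 and 1.43% of all genes it tested. After H2-Ob, the smallest p were those of Ifngr1 at 160 ± 16.4 against 113 ± 20.9 CPM (log2 fold change 0.50, adjusted p = 0.212) and Ctsl at 204 ± 16.2 CPM against 319 ± 23.8 CPM (-0.65, adjusted p = 0.212). Lgmn averaged 57.6 ± 10.8 CPM in Homo KO against 97.9 ± 17.9 CPM in WT (-0.76, adjusted p = 0.218), and Irf8 18.8 ± 3.18 against 34.6 ± 5.21 CPM (-0.88, adjusted p = 0.221). Spi1, which encodes the myeloid factor PU.1, had 7.08 ± 1.52 against 13.3 ± 3.10 CPM (-0.91, adjusted p = 0.223). Between Homo KO and Hete KO, 0 of the 30 had an unadjusted p under 0.05, against 3.19% of all tested genes lower and 2.25% higher. DESeq2 called 0 of them, against 0.0118% of all genes lower and 0.00395% higher. The smallest p belonged to Ctsb at 1214 ± 40.7 CPM in Homo KO and 1027 ± 90.9 in Hete KO (0.24, adjusted p = 0.899).

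The class I route was read as a list of 22 tested genes, with 0 called by edgeR in each comparison. Of all tested genes it called 0.267% lower and 0.15% higher in Hete KO against WT, and 0% in the other comparisons. DESeq2 called 1 lower and 1 higher in Homo KO against WT, where it called 1.92 and 1.43% of all genes, 4 lower in Hete KO against WT, where it called 6.14%, and 0 between the KO groups. The median log2 fold change was -0.20 in Homo KO and -0.25 in Hete KO against WT, where it was -0.01 and 0.02 over all tested genes. At an unadjusted p under 0.05, 4 were lower and 2 higher in Homo KO, against 8.68 and 7.75% of all tested genes, and 7 were lower and 0 higher in Hete KO, against 12.1 and 9.71%. Nlrc5, the coactivator of class I promoters and a relative of Ciita, had 111, 114 and 107 CPM in Homo KO, 83.6, 95.9 and 92.5 in Hete KO, and 82.5, 85.7 and 87.1 in WT. Its Homo KO libraries lay above all others, at a log2 fold change of 0.38 against WT (SE 0.0905, adjusted p = 0.162). Erap1, a peptidase that trims class I peptides, averaged 101 ± 8.21 CPM in Homo KO and 80.3 ± 9.72 CPM in WT (0.33, adjusted p = 0.26). H2-Q4 and H2-Q6, class I genes of a family whose near-identical members can share reads, so that their values are uncertain, had -0.63 (adjusted p = 0.218) and -0.82 (adjusted p = 0.222) in Homo KO against WT. In Hete KO against WT the immunoproteasome subunit gene Psmb10 had -0.69 (adjusted p = 0.0965), the class I heavy chain gene H2-K1 -0.70 (adjusted p = 0.102), H2-Q6 -0.81 (adjusted p = 0.133) and Tapbp, the peptide-loading chaperone tapasin, -0.31 (adjusted p = 0.125).

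As shares of counts, class II genes, macrophage markers and dendritic cell markers were all lowest in Hete KO 2 and highest in WT 2. No correlation between these shares was computed. The 14 macrophage genes summed to between 714 and 1038 CPM in Homo KO, between 590 and 783 in Hete KO and between 1007 and 1408 in WT, and none of the 14 was at 0 in all 9 libraries. In Hete KO against WT, 13 of the 14 had a log2 fold change below 0 (median -1.10), against 48.6% of all tested genes, and 11 were lower at an unadjusted p under 0.05, against 12.1%. DESeq2 called 10 of the 14 lower, against 6.14% of all genes. C1qc, a complement subunit of macrophages, was the one that passed the test in edgeR, and it fell to 15.9 ± 2.41 CPM, against 35.7 ± 8.44 in WT (-1.17, adjusted p = 0.0426). All 14 were below 0 in Homo KO against WT (median -0.58), against 50.7% of all tested genes, and 7 were lower at an unadjusted p under 0.05, against 8.68%. There edgeR called 0 and DESeq2 2 of them, against 1.92% of all genes lower. The 12 dendritic cell genes summed to between 127 and 188 CPM in Homo KO, between 105 and 123 CPM in Hete KO and between 135 and 206 in WT, with a median log2 fold change of -0.27 in Hete KO and 0.08 in Homo KO against WT. Of these 12, 9 were below 0 in Hete KO against WT, against 48.6% of all tested genes. At an unadjusted p under 0.05, 5 were lower, and 5 were lower without overlap, each against 12.1% of all tested genes. There edgeR called 0 lower, against 0.267%, and DESeq2 4 lower, against 6.14%. In Homo KO against WT 6 were below 0, against 50.7% of all tested genes, and 0 were lower at an unadjusted p under 0.05, against 8.68%. Neither tool called any of the 12 there, where edgeR called 0% of all genes and DESeq2 1.92% lower and 1.43% higher. The 11 B cell genes summed to between 352 and 392 CPM in Homo KO, between 184 and 634 in Hete KO and between 508 and 631 in WT. Most of that sum was the immunoglobulin gene Ighm, with -0.72 in Homo KO and -0.73 in Hete KO against WT. Of the 11, 9 were above 0 and 2 below in both comparisons (medians 0.70 and 0.85), where 50.7 and 48.6% of all tested genes were below 0. At an unadjusted p under 0.05, 3 were higher in both (Cd79a, Cr2 and Pax5), against 7.75 and 9.71% of all tested genes. Of the 11, edgeR called 0 in both, against 0 and 0.15% of all tested genes higher. DESeq2 called 2 of 11 higher in Homo KO against WT, where it called 1.43% of all genes higher. In Hete KO against WT it called 2 of the 9 it tested higher, against 3.64%. It called 0 of them lower in both, against 1.92 and 6.14% of all genes. The 8 endothelial genes summed to between 692 and 985 CPM in Homo KO, between 663 and 740 in Hete KO and between 658 and 899 in WT, and lymph node stroma genes to at most 5.99 CPM in any library. The part of these cells in the class II values was not tested, and in bulk tissue fewer cells of a type and less RNA per cell cannot be told apart.

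Measured against Adgre1, the macrophage marker F4/80, Cd74 and H2-DMb1 did not go the same way on average. The TPM ratio of Cd74 to Adgre1 was 9.96, 11.7 and 17.5 in Homo KO, 11.4, 13.4 and 12.7 in Hete KO, and 7.86, 8.66 and 11.1 in WT. For H2-DMb1 the ratio to Adgre1 was 0.763, 0.733 and 1.01 in Homo KO, 0.808, 0.907 and 0.865 in Hete KO, and 0.962, 1.19 and 1.78 in WT. The Cd74 ratio was on average higher in the KO groups than in WT, and the H2-DMb1 ratio lower. In Homo KO both ratios overlapped WT. In Hete KO neither did, by a narrow margin (11.4 against 11.1 for Cd74, 0.907 against 0.962 for H2-DMb1). Such ratios depend on the marker chosen. Against WT, Adgre1 had a log2 fold change of -1.14 in Hete KO and -0.70 in Homo KO. Csf1r fell less, at -0.87 and -0.31, Mertk had 0.23 and -0.05, and Trem2 fell more, at -1.89 and -1.23. Ratios to macrophage genes other than Adgre1 were not formed.

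**Figure D5:**
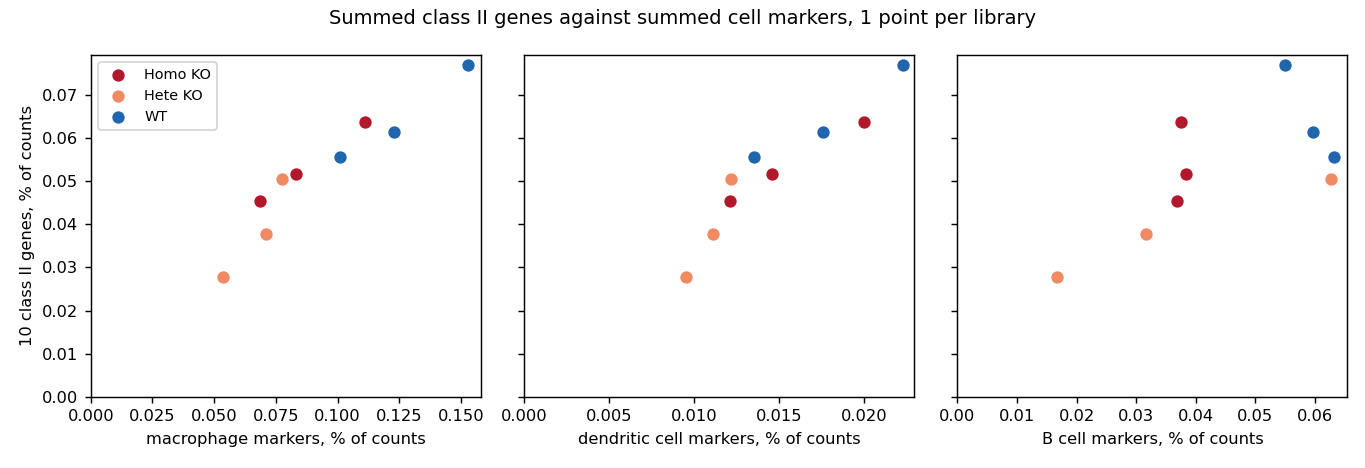
Summed share of counts of the 10 class II genes (y axis, %) against the summed share of macrophage, dendritic cell and B cell marker genes (x axes, %), with 1 point per Homo KO, Hete KO or WT library. Hete KO 2 has the lowest class II share (0.0278%) and the lowest macrophage share (0.0535%), and WT 2 the highest of both (0.0769 and 0.153%). The dendritic cell share is likewise lowest in Hete KO 2 (0.0095%) and highest in WT 2 (0.0223%).

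The 4 abundant genes moved together over the 9 libraries, with Pearson correlations of log2 CPM between 0.957 and 0.986 for each pair, given as a description. Their mean profile correlated at 0.94 with H2-DMa, 0.85 with Ciita and 0.84 with H2-DMb1, and at 0.41, 0.13 and -0.49 with the low genes H2-DMb2, H2-Oa and H2-Eb2. Among 14202 other named protein-coding genes with a mean of at least 1 CPM, the 10 most like this profile were Mmp14 (0.990), Pf4 (0.985), Arhgdib (0.984), Myo9b (0.982), Unc93b1 (0.981), Ccnd1 (0.980), Pld4 (0.977), Litaf (0.974), Rflnb (0.973) and Prkcd (0.973). Mmp14, a membrane-bound matrix metalloprotease, had 78.7, 75.1 and 60.8 CPM in Homo KO, 68.3, 31.1 and 37.2 in Hete KO, and 84.5, 112 and 71.0 in WT. Pf4, a platelet and macrophage chemokine, had 11.7, 11 and 9.41 CPM in Homo KO, 9.83, 5.31 and 7.20 in Hete KO, and 12.7, 17.5 and 11.3 in WT. As with H2-Aa, H2-Ab1, H2-Eb1, Cd74 and H2-DMb1, WT 2 held the highest level of both and Hete KO 2 the lowest.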

How the data were processed

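Per the file headers, each deposited file holds, for 1 library, estimated counts (expected counts, fractional and not normalized) and TPM, which the authors scaled to effective length and library total, for 113193 transcripts. The submitters' processing notes name mm10 as the build, and the quantifier is not given in the sources used here. Transcripts were joined to GENCODE M21 genes by identifier: 111362 (98.38%) matched, and the unmatched ones, with between 0.581 and 1.06% of the counts, were dropped. Gene sums of the estimated counts, and the single transcripts, were rounded. edgeR 4.0.16 (R 4.3.3) fitted a group mean to all 9 libraries together, leaving 6 residual degrees of freedom (TMM, default filter on low counts, two-sided quasi-likelihood F-test), with Benjamini-Hochberg adjustment over all 17968 tested genes or 55891 transcripts and a threshold of 0.05. The SE is the log2 fold change over the square root of F. Fits were tested on simulated data. DESeq2 1.42.0 and limma 3.58.1 served as alternatives, beside other filters, scalings and left-out libraries. Ratios of TPM, correlations, 31-base words, alignments (Biopython 1.88) and motif searches used Python 3.11.15. One gene of the list of 32 was not among the genes with a matched transcript and is not analysed here. The text names every member, and from the pathway and class I lists up to 6 and 4 genes with the smallest p, except where fewer are printed. The members and lists were chosen with earlier results of these data known.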

Additional observations from a re-analysis of the deposited data

How the results depend on the processing

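Over 559 recomputed log2 fold changes of single class II genes, 517 kept their direction and their side of the threshold, 13 lost a call, 11 gained one and 18 turned in sign. The count of members called in Hete KO against WT (1) was 5 with DESeq2 and 0 with limma on log2(TPM + 0.5) or log2(TPM + 0.1), with only the 2 compared groups, with H2-DMb1 and H2-DMb2 summed, without the libraries with liver transcripts and without the 3 libraries with over 0.5% muscle transcripts (a setting chosen after seeing the data), and it ran from 0 to 6 when 1 library was left out. In Homo KO against WT that count (0) was 1 with DESeq2 and 1 without the libraries with over 1% muscle transcripts (WT 1 and Hete KO 2). Member transcripts called (0) numbered 1 with DESeq2 in each comparison with WT. Pathway genes called (0) numbered 3 with DESeq2 in Homo KO against WT. In Hete KO against WT they numbered 7 with DESeq2, 4 with no filter on low counts, and between 0 and 8 with 1 library left out. The causes were not tested. With the replicate number as a block, 1 pathway gene and 1 member were called in Hete KO against WT. Same-numbered libraries had deviations that correlated between -0.07 and 0.46, so the numbers were not taken to pair the animals.

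The values that turned in sign were uncalled. In Homo KO against WT, H2-DMa had 0.30 and 0.31 with limma at pseudocounts of 0.5 and 0.1, and without the 3 muscle-transcript libraries H2-Aa had 0.05, H2-Ab1 0.06 and Ciita 0.05. With 1 library left out, H2-DMb2 ran from -0.53 to 0 and Ciita from -0.10 to 0. In Hete KO against WT, H2-DMb2 had 0.36 without the libraries with over 1% muscle transcripts, 0.59 without the 3 with over 0.5%, and between -0.65 and 0.37 with 1 library left out, and Ciita had 0.04 without those 3. In Homo KO against Hete KO, H2-DMb2 had 0.05 and 0.14 with limma and ran from -0.64 to 0.39 with 1 library left out, and H2-Eb2 from -0.67 to 0.31. H2-Eb2, H2-Oa and H2-DMb2 are limited by depth, with at most 19, 8 and 80 estimated counts in a library. Leaving out the liver libraries or the 3 muscle libraries leaves 1 WT library, which is then assumed to vary like the other groups.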
